A study of Mus musculus with 30 samples.

Results

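Glucose is filtered in the glomerulus and taken back by the proximal tubule in 2 steps. Sodium-coupled carriers of the SLC5 family in the brush border bring it into the cell, and facilitative carriers of the SLC2 (GLUT) family let it leave on the blood side. Slc5a2 (SGLT2) does most of this work in the early proximal tubule and is paired there with Slc2a2 (GLUT2), while Slc5a1 (SGLT1) takes up what is left in the late segment.

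The genes described here are 8 carriers of these families, of 41128 genes in the kidney and aorta count tables. The sodium-coupled members are Slc5a1, Slc5a2, Slc5a8 and Slc5a10, and the facilitative members are Slc2a1, Slc2a2, Slc2a4 and Slc2a5. Not all of them carry glucose by preference: Slc5a8 (SMCT1) takes up lactate and other monocarboxylates, Slc5a10 (SGLT5) mannose and fructose, and Slc2a5 (GLUT5) fructose. They were chosen by name and selected on the rise of Slc5a2 in kidneys on a high-fat diet (HFD), so the kidney values of HFD against a standard-fat diet (SFD) are given for all 8 members as a description, without a test.

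RNA came from kidneys of 16 male mice, 4 in each of the groups WT-SFD, WT-HFD, KO-SFD and KO-HFD, and from 14 aortae, of which 3 were WT-SFD, 4 WT-HFD, 3 KO-SFD and 4 KO-HFD. All mice (strain background C57Bl6J) carried a tamoxifen-inducible Cre recombinase driven by the smooth muscle promoter Smmhc and all received tamoxifen. KO mice had floxed Egfr alleles and WT mice had no loxP sites, and the diets lasted 18 weeks from 6 weeks of age. The deletion is thus aimed at cells that use the Smmhc promoter, whereas RNA from kidney tissue of mixed cell types was measured. Egfr, the targeted gene, lay at 39.1 to 58.4 FPM in WT-SFD, 36.9 to 56.6 in WT-HFD, 46.7 to 60.8 in KO-SFD and 40.5 to 45.5 in KO-HFD kidneys, where the genotypes overlapped. In the aorta it lay at 39.5 to 54.3 FPM in WT-SFD, 51.2 to 65.1 in WT-HFD, 26.8 to 35.5 in KO-SFD and 27.5 to 40.6 in KO-HFD, and on each diet no KO aorta reached the lowest WT aorta. FPM (CPM in the tools) are counts set relative to library size, which was scaled by edgeR's TMM factors. Total counts per library ran from 16354880 to 28331314 in the kidney and from 6403699 to 13052870 in the aorta. Single mice are named as labelled, with SMMHC for kidneys and BS_ for aortae, and p-values measure the spread between these mice.

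Whole tissue holds many cell types, and fewer cells of a type cannot be told apart from less RNA per cell. The kidneys carried strong signals of the tubule: the phosphate carrier Slc34a1 of the proximal tubule lay between 5895 and 10805 FPM, and Umod of the thick ascending limb between 2543 and 5688 FPM. The smooth muscle gene Acta2 reached only 36.8 FPM in the kidney.

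Slc5a2 (chromosome 7, 128265657 to 128272430, plus strand, GRCm38) separated the diets in both genotypes. The 4 WT-SFD kidneys held 469.7, 281, 355 and 391 FPM, and the 4 WT-HFD kidneys 899.9, 985, 778 and 789.9 FPM. In KO kidneys the values were 336, 374, 317 and 341 FPM on SFD and 667, 755, 1453 and 1095 FPM on HFD. Every HFD kidney lay above every SFD kidney, and the KO-HFD kidneys spread most, with SMMHC1520 the highest of all 16. The group means were 374 ± 78.3 and 863 ± 98.0 FPM in WT (SD, n = 4), and 342 ± 23.8 and 992 ± 358 FPM in KO (SD, n = 4). The fitted log2 fold change of HFD against SFD was 1.21 (standard error 0.206) in WT and 1.54 (standard error 0.208) in KO, and 1.30 in KO without SMMHC1520. Exons of Slc5a2 share 597 bases with BC017158 on the opposite strand, and the strand setting of the counting is not given in the sources used here. BC017158 stayed between 26.3 and 35.6 FPM in all 16 kidneys. It differed between the diets by a log2 value of 0.13 (standard error 0.0844) in WT and 0.09 (standard error 0.085) in KO and was called in neither by edgeR.

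Among the other sodium-coupled members, none separated the diets in WT. Slc5a1 (chromosome 5, 33104219 to 33162870, plus strand) lay between 66.9 and 108 FPM in all kidneys, with group means of 89.2 ± 17.9, 92.7 ± 8.24, 79.4 ± 9.65 and 93.4 ± 7.44 FPM in WT-SFD, WT-HFD, KO-SFD and KO-HFD (SD, n = 4). The lowest and the highest kidney were both WT-SFD. Slc5a10 (chromosome 11, 61672781 to 61720826, minus strand) varied 3.07-fold between kidneys, with a wide spread within groups. It reached 384, 637, 239 and 313 FPM in WT-SFD, 367, 554, 364 and 464 in WT-HFD, 304, 492, 471 and 345 in KO-SFD and 437, 447, 733 and 569.8 in KO-HFD. The diet groups overlapped in WT and in KO. Slc5a10 shares 393 exon bases with Fam83g on the opposite strand, which itself lay between 14.5 and 28.4 FPM. Fam83g differed between the diets by a log2 value of 0.39 in WT (standard error 0.127), where its HFD kidneys lay wholly above the SFD kidneys, and 0.45 in KO (standard error 0.128), and was called in neither by edgeR.

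Slc5a8 (chromosome 10, 88885992 to 88929515, plus strand), the monocarboxylate carrier, was lowest in KO-HFD. The values were 339, 222, 271 and 364 FPM in WT-SFD, 247, 297, 264 and 308 in WT-HFD, 291, 264, 298 and 264 in KO-SFD, and 221, 214, 218 and 246 in KO-HFD. The KO-HFD kidneys lay below all KO-SFD and all WT-HFD kidneys, but overlapped with WT-SFD through SMMHC1446. The log2 fold change between the diets was -0.10 (standard error 0.129) in WT and -0.31 (standard error 0.129) in KO.

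Slc2a2 (chromosome 3, 28697903 to 28731359, plus strand), the partner of Slc5a2 on the blood side, also separated the diets, with a smaller difference. It lay at 118, 104, 83.1 and 116 FPM in WT-SFD and at 148, 128, 163 and 142 FPM in WT-HFD. In KO it lay at 88.1, 88.6, 89.8 and 87.9 FPM on SFD and at 117, 131, 193 and 171 FPM on HFD. Again every HFD kidney was above every SFD kidney of its genotype, although the lowest KO-HFD kidney (117 FPM) was below the highest WT-SFD kidney (118 FPM). The log2 fold change was 0.47 (standard error 0.143) in WT and 0.79 (standard error 0.144) in KO. Within KO-HFD the kidneys had the same order for Slc2a2 as for Slc5a2, from SMMHC1437 over SMMHC1504 and SMMHC1558 to SMMHC1520.

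Slc2a4 (GLUT4; chromosome 11, 69942539 to 69948188, minus strand), the insulin-responsive carrier of fat and muscle, was lower on HFD. It was at 33.1, 45.2, 41.1 and 38.0 FPM in WT-SFD and at 31.3, 27.8, 28.2 and 28.3 FPM in WT-HFD. KO kidneys held 42.2, 41.2, 48.6 and 49.9 FPM on SFD and 32.3, 34.3, 30.6 and 28.5 FPM on HFD. The diet groups did not overlap in either genotype, and the log2 fold changes were -0.44 (standard error 0.103) and -0.53 (standard error 0.103). Fat markers also varied between kidneys: the 8 adipocyte markers, of which Fabp4 was the most abundant and none was at 0 throughout, summed to 64.7 to 243 FPM in WT-SFD, 77.3 to 129 in WT-HFD, 68.4 to 665 in KO-SFD and 60.2 to 175 in KO-HFD. In KO-SFD, SMMHC1319 had 48.6 FPM of Slc2a4 with an adipocyte sum of 68.4 FPM, and SMMHC1451 had 49.9 FPM with a sum of 665 FPM. In WT-SFD, SMMHC1309 had the least Slc2a4 (33.1 FPM) and the lowest sum (64.7 FPM). SMMHC1446 had the most Slc2a4 of that group (45.2 FPM) and the highest sum (243 FPM). The part of fat cells in the level of Slc2a4 was not tested.

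Slc2a1 (GLUT1; chromosome 4, 119108711 to 119137983, plus strand), the carrier found in most cells, overlapped between the diets. It lay at 74.8, 108, 115 and 73.7 FPM in WT-SFD, 75.2, 75.6, 89.4 and 80.0 in WT-HFD, 101, 91.4, 86.5 and 105 in KO-SFD and 85.1, 95.3, 54.6 and 67.2 in KO-HFD. Its lowest kidney was SMMHC1520, which had the most Slc5a2 and Slc2a2. Slc2a5 (chromosome 4, 150119283 to 150144169, plus strand) overlapped too. It lay at 146, 117, 110.5 and 115 FPM in WT-SFD, 123, 160.1, 121 and 154 in WT-HFD, 133, 217, 227 and 127 in KO-SFD and 125, 126, 173 and 173 in KO-HFD, with the highest values in SMMHC1318 and SMMHC1319.

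**Figure D1:**
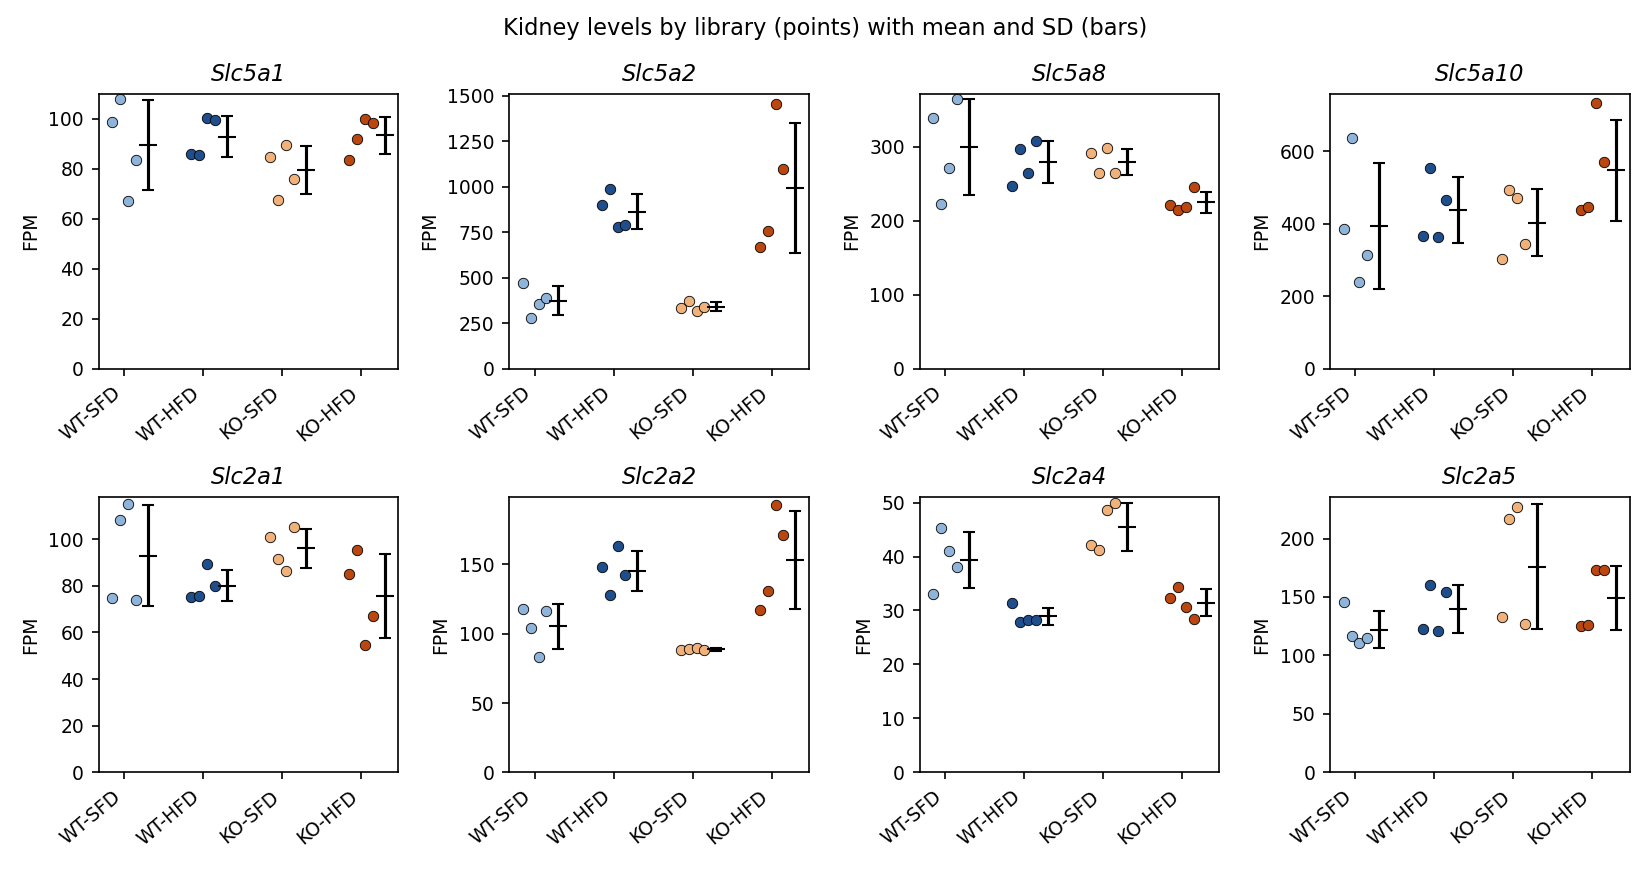
Level of each member in FPM (vertical axis, from 0) in each kidney library (points) of the 4 groups, with the group mean and SD beside the points. Slc5a2 and Slc2a2 lie higher and Slc2a4 lower on HFD in both genotypes, while the diets overlap for Slc5a1, Slc5a10, Slc2a1 and Slc2a5.

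Of the 8 members, 2 lay wholly higher on HFD in WT (Slc5a2 and Slc2a2) and 1 wholly lower (Slc2a4). In KO, 2 lay wholly higher and 2 wholly lower, the second being Slc5a8. Of all genes tested, 3.02% lay wholly higher and 1.99% wholly lower on HFD in WT, and 5.02% and 3.85% in KO. Since the members were chosen with this contrast in view, nothing is read from these counts.

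**Figure D2:**
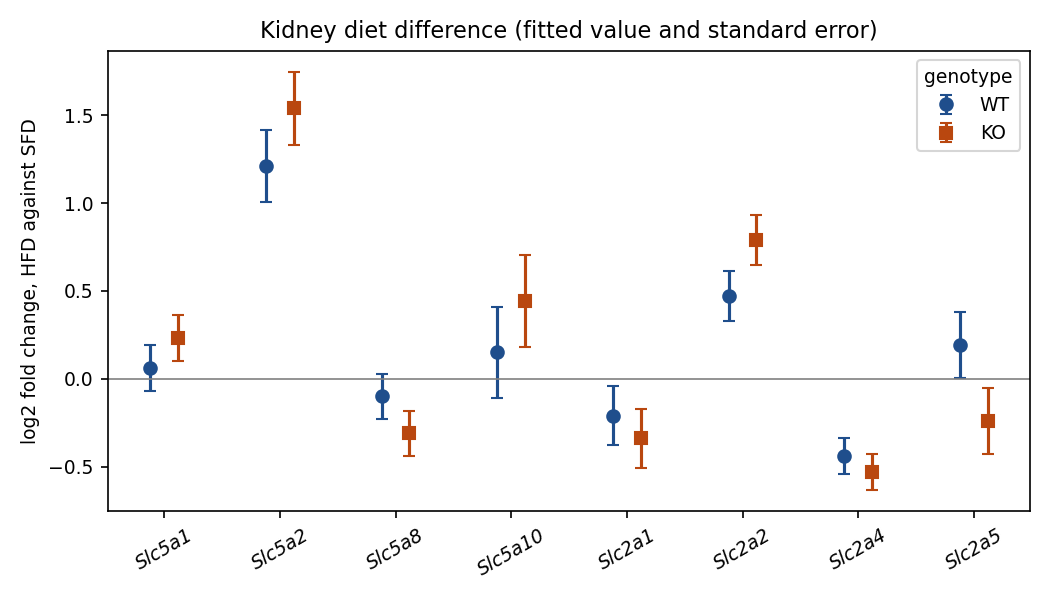
Fitted log2 fold change of HFD against SFD in the kidney for each member in WT (circles) and KO (squares), with its standard error as bars. Slc5a2 has the largest values of the 8 members, 1.21 in WT and 1.54 in KO, and Slc2a4 lies at -0.44 and -0.53.

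Per kilobase of exon (FPKM), which allows genes to be set side by side, Slc5a10 and Slc5a2 led in every kidney group. In WT-SFD the means were 166 ± 73.2 FPKM for Slc5a10, 129 ± 27 for Slc5a2, 56.1 ± 12.1 for Slc5a8, 36.0 ± 4.78 for Slc2a5, 26.5 ± 6.18 for Slc2a1, 21.7 ± 4.36 for Slc5a1, 18.3 ± 2.76 for Slc2a2 and 11.3 ± 1.47 for Slc2a4 (SD, n = 4). Neighbours in this order overlapped, except that Slc5a8 lay below Slc5a2 and Slc2a4 below Slc2a2 in every kidney of the group. In WT-SFD the lead of Slc5a10 rested on SMMHC1446, with 269 FPKM against 97.2 for Slc5a2. Both lay at 162 FPKM in SMMHC1309. Slc5a10 was lower in SMMHC1694 (101 against 123) and SMMHC1695 (132 against 135). On HFD the order of the means at the top changed. Slc5a2 reached 298 ± 33.8 FPKM in WT-HFD, above Slc5a10 at 185 ± 38.3 with no overlap, and 343 ± 124 in KO-HFD, where it overlapped with Slc5a10 at 231 ± 58.3 (SD, n = 4). With the length of the longest transcript in place of all exons, Slc5a2 in WT-SFD came to 164 FPKM. The 166 FPKM of Slc5a10 above rests on all exons (2365 bases, longest transcript 2261), so these 2 values are not on the same kind of length.

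Promoters are shown for a member that separated the diets (Slc2a2), one that did not (Slc5a1) and one that varied within groups (Slc5a10), as the 250 bases before the start in RefSeq's entries for GRCm38.p6, where 6 of the 8 members had an entry. Slc5a2 and Slc2a4 had none. Capitals mark letters that match a motif on either strand: GTTAAT (a half-site of HNF1 factors, in 6.43% of 32851 promoters of this length), AGGTCA (a half-site of nuclear receptors, in 14%), CACGTG (an E-box, in 6.02%) and GGGCGG (a GC box, in 32.7%). No matches overlapped each other in the windows shown.
Slc2a2, chr3:28697653-28697902, plus strand: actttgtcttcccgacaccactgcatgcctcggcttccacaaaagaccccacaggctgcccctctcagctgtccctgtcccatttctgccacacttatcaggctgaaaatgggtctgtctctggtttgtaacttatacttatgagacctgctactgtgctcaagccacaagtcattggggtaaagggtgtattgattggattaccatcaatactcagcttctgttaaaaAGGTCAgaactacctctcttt
Slc5a1, chr5:33103969-33104218, plus strand: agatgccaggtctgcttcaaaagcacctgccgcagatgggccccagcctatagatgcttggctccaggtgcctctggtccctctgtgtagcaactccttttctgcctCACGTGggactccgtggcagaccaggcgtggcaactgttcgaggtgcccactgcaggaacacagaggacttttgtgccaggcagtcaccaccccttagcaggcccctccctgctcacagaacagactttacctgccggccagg
Slc5a10, chr11:61720800-61721049, minus strand: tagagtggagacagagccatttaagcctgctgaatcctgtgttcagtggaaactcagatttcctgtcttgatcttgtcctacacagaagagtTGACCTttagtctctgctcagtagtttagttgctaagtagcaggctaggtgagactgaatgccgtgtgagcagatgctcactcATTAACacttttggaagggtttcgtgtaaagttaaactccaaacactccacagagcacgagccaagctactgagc
Slc2a2 held 1 match, to AGGTCA, which began 21 bases before the start. Slc5a1 held 1 match, to CACGTG. This entry of Slc5a10 held 1 match to the nuclear receptor half-site and 1 to the HNF1 half-site, both in reverse orientation. Its second entry (chr11:61719986-61720235), not printed, held 0 matches. A match is a description of the letters and not of a bound site.

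KO against WT was not used to choose the members and was tested in the kidney. No member passed an adjusted p of 0.05 in edgeR's quasi-likelihood test on SFD, on HFD or averaged over the diets. On SFD, 0.0133% of all 15034 genes passed, on HFD 0.0% and averaged over the diets 0.0133%. At an unadjusted p under 0.05 there was 1 member on SFD, 1 on HFD and 3 over both diets, against 8.69%, 1.75% and 5.93% of all genes, and DESeq2 called 0 in each. Slc2a5 was higher in KO on SFD by a log2 value of 0.52 (standard error 0.188, edgeR adjusted p = 0.498), and its groups overlapped. Slc5a8 on HFD had a log2 fold change of -0.31 in KO against WT (standard error 0.129, edgeR adjusted p = 1.0), and the KO kidneys lay wholly below the WT kidneys, as did 0.678% of all genes. Slc5a2 differed between the genotypes by -0.13 on SFD (standard error 0.204) and 0.20 on HFD (standard error 0.203), with edgeR adjusted p values of 0.848 and 1.0. Whether the diet difference itself depended on the genotype was tested as an interaction. It was 0.33 for Slc5a2 (standard error 0.287) and 0.32 for Slc2a2 (standard error 0.202), each with an edgeR adjusted p of 1.0. None of the members and 0.0% of all genes passed, with 0 members (3.35% of all genes) at an unadjusted p under 0.05 and 0 called by DESeq2.

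The other genes of sugar transport were followed in lists, and these genes, unlike the members, were tested between the diets. Of 18 other carriers, all SLC2 or SLC5 genes except Slc50a1, 14 were tested. In WT, 0 rose and 0 fell, against 0.818% of all genes higher and 0.146% lower, and the median log2 fold change was -0.02 (all genes -0.00466). In KO, 1 rose and 0 fell, against 1.57% and 0.825% of all genes, with a median of -0.15 (all genes -0.00368). The gene that rose was Slc5a12 (SMCT2), a lactate carrier of the proximal tubule, from 74.4 ± 12.6 to 163 ± 44.0 FPM (SD, n = 4; log2 fold change 1.13, standard error 0.256, edgeR adjusted p = 0.0253). In WT it differed by 0.74 on the log2 scale (edgeR adjusted p = 0.307). The call in KO was lost without any 1 of SMMHC1318, SMMHC1319, SMMHC1451, SMMHC1520 and SMMHC1558, with edgeR adjusted p of at most 0.0925. The most abundant of the list, the myo-inositol carrier Slc5a3, ranged from 38.7 to 258 FPM and had adjusted p values of 0.996 in WT and 0.449 in KO by edgeR.

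Partners and regulators of glucose transport showed no call by edgeR. Of 18 listed genes 16 were tested, with medians of -0.03 in WT and 0.06 in KO. Rsc1a1 and Fxyd2 were listed at 0 in every library, Fxyd2 as a gene of chromosome 9, on which no gene had a count. Of 10 genes of glucose phosphorylation and sensing, 8 were tested, with 0 calls in WT (median 0.30, all genes -0.00466) and 1 higher in KO (median 0.08, all genes -0.00368), against the same 0.818% higher and 0.146% lower of all genes in WT and 1.57% and 0.825% in KO. G6pc, which releases glucose from glucose 6-phosphate in gluconeogenesis, rose in KO from 302 ± 76.5 to 845 ± 329 FPM (SD, n = 4; log2 fold change 1.49, standard error 0.299, edgeR adjusted p = 0.0115). Without SMMHC1318 the edgeR adjusted p was 0.051. In WT it lay at 383 ± 167 and 705 ± 90.0 FPM (SD, n = 4; log2 fold change 0.88, edgeR adjusted p = 0.291). Pck1, the most abundant of the list and the entry enzyme of gluconeogenesis, differed by 0.55 in WT and 1.45 in KO on the log2 scale (edgeR adjusted p = 0.842 and 0.0675).

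Markers of the early proximal tubule, where Slc5a2 and Slc2a2 are at home, had calls in both genotypes, and the test of whether the diet difference depends on the genotype called 0 of 9 by edgeR, with 8 values above 0 (KO minus WT) and a median of 0.38. Of 9 such markers 1 rose and 0 fell in WT, with a median log2 fold change of 0.35 and 3 markers below 0, against 0.818% and 0.146% of all genes called. In KO, 5 rose and 0 fell, with a median of 0.75, against 1.57% and 0.825% of all genes. The amino acid carrier Slc7a8 rose in both, by 0.82 in WT and 1.35 in KO (edgeR adjusted p = 0.026 and 0.000399). Its call in WT was lost when any 1 of 6 WT kidneys was left out (edgeR adjusted p up to 0.108), namely SMMHC1446, SMMHC1694, SMMHC1695, SMMHC1535, SMMHC1641 and SMMHC1642, and its call in KO under none. In KO the arginine-glycine amidinotransferase Gatm, the amino acid carrier Slc7a7 and the bicarbonate carrier Slc4a4 rose by 1.45, 0.98 and 0.75 (edgeR adjusted p = 0.0045, 0.00346 and 0.0158), besides Slc5a12, which is on both lists. The call of Slc4a4 was lost without SMMHC1318, SMMHC1520 or SMMHC1558 (edgeR adjusted p up to 0.0629), and those of Gatm and Slc7a7 under no kidney left out. Slc34a1, the most abundant, differed by -0.05 and 0.35 (edgeR adjusted p = 0.998 and 0.406). None of the 9 was at 0 throughout, and they summed to 10013 to 12791 FPM in WT-SFD, 10179 to 11905 in WT-HFD, 8633 to 9788 in KO-SFD and 10331 to 15368 in KO-HFD. In WT these sums overlapped between the diets. SMMHC1520, the highest for Slc5a2 and Slc2a2, also had the highest marker sum. The part of these cells in the levels of the members was not tested. The 5 markers of the late segment had 0 calls, with medians of -0.11 in WT and -0.42 in KO.

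**Figure D3:**
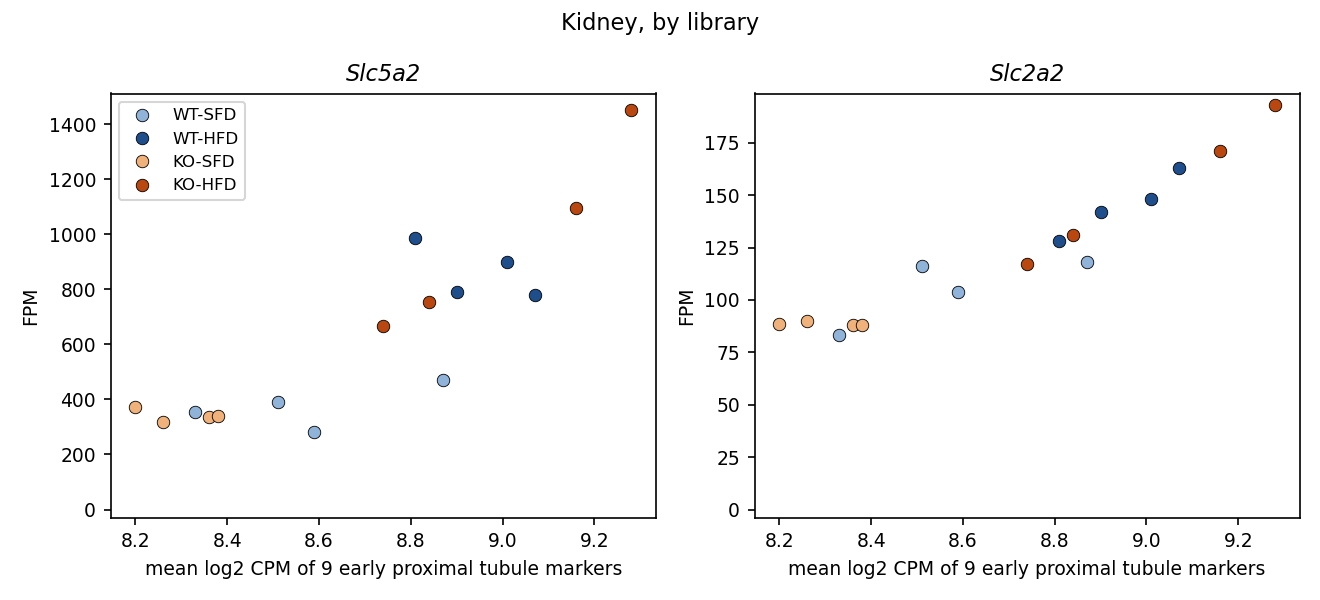
FPM of Slc5a2 (left) and Slc2a2 (right) in each kidney library against the mean log2 CPM of 9 early proximal tubule markers, coloured by group. The kidney with the highest marker mean, KO-HFD SMMHC1520, has 1453 FPM of Slc5a2 and 193 FPM of Slc2a2, and the WT-SFD kidney with the highest marker mean (SMMHC1309) has 469.7 and 118 FPM.

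Other tubule segments and cell types had few calls between the diets. In KO, 2 of 3 markers of the distal convoluted tubule rose, Slc12a3 by 0.71 and Pvalb by 1.57 (edgeR adjusted p = 0.0124 and 0.0021), against 1.57% of all genes called higher and 0.825% lower. The other marker, Trpm6, had a log2 fold change below 0 and was not called. Without SMMHC1318 the edgeR adjusted p of Slc12a3 was 0.0516. Of 8 adipocyte markers edgeR called 1, Lep, which had 3 to 4 counts in each KO-SFD kidney and 32 to 271 in KO-HFD. It passed the filter largely through HFD kidneys, so nothing is read from its call. The median of the adipocyte list was -0.50 in WT and -1.03 in KO. In WT these lists had 0 calls by edgeR. The lists of the thick ascending limb, collecting duct, podocyte, endothelium, leucocyte, fibroblast, smooth muscle, skeletal muscle and erythroid cells had 0 calls in either genotype by edgeR. The 4 tested markers of the thick ascending limb were all below 0 in both genotypes, with medians of -0.20 in WT and -0.45 in KO. Umod was the most abundant of the list. Kcnj1 was at 0 throughout, as was every gene of its chromosome 9, so its 0 is not read as absence of the RNA. In KO the sums of the list were 8214 to 9264 FPM on SFD and 4036 to 7183 FPM on HFD without overlap, and SMMHC1520 was the lowest, whereas in WT they overlapped (6564 to 8502 and 5332 to 7836 FPM). The part of these cells in the levels of the members was not tested.

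The genes whose levels ran most like Slc5a2 over the 16 kidneys were Agxt2, Slc34a3, Zmynd15, Ugt2b34 and Igsf9, with Pearson's r of log2 CPM of 0.972, 0.97, 0.966, 0.966 and 0.961. Within the groups, after the group means were taken off, r was 0.833, 0.798, 0.737, 0.733 and 0.707. The libraries share the diet difference and the scaling, so these values are a description. Of the other members, Slc2a2 ran with Slc5a2 at r = 0.911 (within groups 0.675) while Slc2a4 and Slc2a1 ran against it at r = -0.888 and -0.747 (within groups -0.601 and -0.813). The other members had r between -0.33 and 0.463. Agxt2, a mitochondrial aminotransferase, went from 92.3 ± 11 to 162 ± 10.6 FPM in WT and from 79.8 ± 6.33 to 167 ± 37.8 FPM in KO (SD, n = 4). Slc34a3, a phosphate carrier of the proximal tubule, went from 41.1 ± 8.30 to 87.2 ± 4.77 and from 40.6 ± 5.13 to 91.1 ± 22.8 FPM (SD, n = 4).

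In the aorta the set looked different. Slc5a1, Slc5a8, Slc5a10 and Slc2a2 had summed counts of 4, 10, 11 and 16 over all 14 libraries and did not pass the filter on low counts. Slc5a2 was counted in every aorta, but with 2 to 46 counts a library, from 0.279 to 5.88 FPM. The facilitative carriers Slc2a1 and Slc2a4 were present throughout, at 18.0 to 33.5 and 11.9 to 114 FPM. In FPKM, Slc2a1 had a median of 7.10 in the aorta and 24.5 in the kidney, and Slc2a4 of 5.54 and 9.68. The tissues were sequenced at different sites and scaled apart, so these levels are set side by side without a test.

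**Figure D4:**
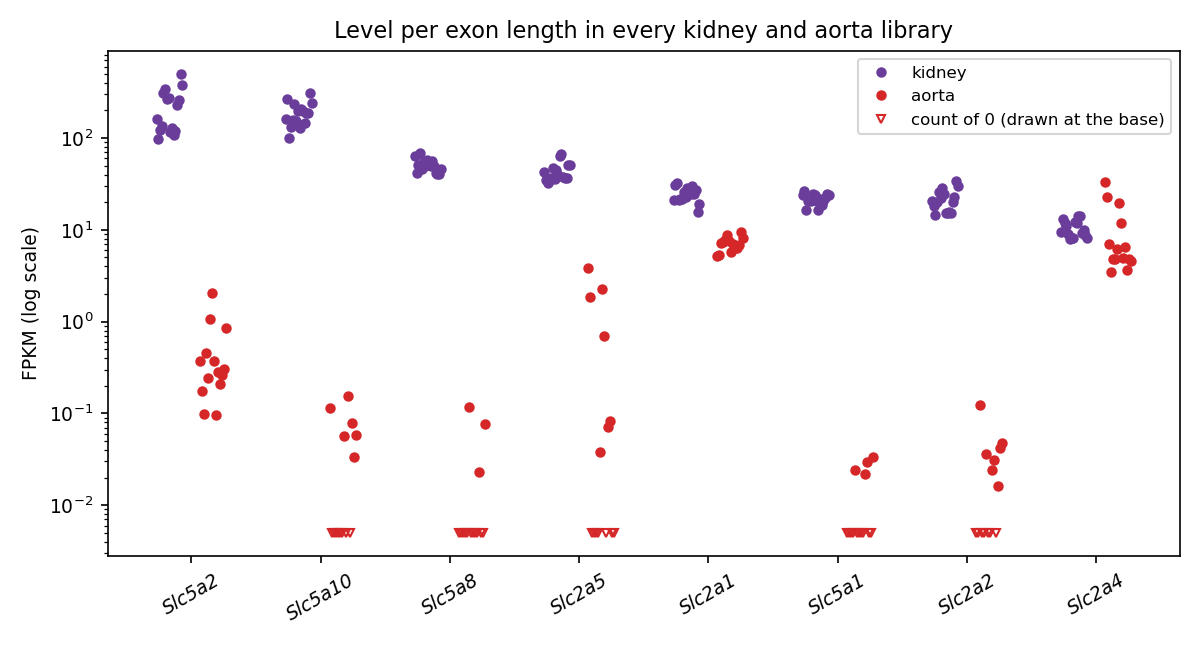
FPKM (log axis) of each member in the 16 kidney and 14 aorta libraries, 1 point each, with counts of 0 drawn as open triangles at the base. Slc5a2 spans 97.2 to 501 FPKM in the kidney and 0.0962 to 2.03 in the aorta, whereas the aorta reaches the kidney range for Slc2a4.

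Before the aortic comparisons, 4 aortae have to be named that stood apart in fat. The 8 adipocyte markers, none at 0 throughout and Fabp4 the most abundant, summed to 3246, 2261 and 71.2 FPM in WT-SFD (BS_1309, BS_1310 and BS_1445) and to 1842, 654 and 75.8 FPM in KO-SFD (BS_1319, BS_1452 and BS_1507). On HFD they summed to 85.0 to 160.1 FPM in WT and 37.5 to 115 FPM in KO. In 3 of these aortae (BS_1309, BS_1310 and BS_1319) other markers stood apart as well. Their erythroid markers, of which Alas2 was at 0 throughout, summed to 27.3, 13.1 and 20.6 FPM, against 166 to 804 FPM in the other 11. Their smooth muscle markers, of which Acta2 was the most abundant and Cnn1 and Tagln were at 0 throughout, summed to 8808, 10993 and 9379 FPM, against 13340.5 to 16078 FPM. Their fibroblast markers, of which Col1a1 was the most abundant, summed to 2061, 1757 and 1689 FPM, against 2434 to 3547 FPM. Their endothelial markers, of which Cdh5 was at 0 throughout, had a mean log2 CPM of 6.2, 6.03 and 5.92, against 4.03 to 4.96. The endothelial sums overlapped. Of the markers at 0 throughout, Cnn1 and Tagln lie on chromosome 9 and Alas2 on X, where no gene had a count. Cdh5 lies on chromosome 8, where other genes had counts, and the cause of its 0 was not tested. None of these zeros is read as absence of the RNA. The part of erythroid, smooth muscle, fibroblast and endothelial cells in the results was not tested. For fat, fits with the adipocyte marker mean are given below for Slc2a4 and Slc2a1, and they cannot fully tell diet from fat. Per the labels, fat beside the aortae had been removed before freezing.

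Slc2a4 followed the same libraries. It lay at 114, 78.1 and 24.5 FPM in WT-SFD and at 11.9, 16.6, 16.7 and 21.6 FPM in WT-HFD. KO aortae held 67.8, 41.5 and 16.9 FPM on SFD and 22.6, 12.7, 16.6 and 15.7 FPM on HFD. In WT all HFD aortae lay below all SFD aortae, as for 4.53% of all genes. The log2 fold change was -2.12 in WT (standard error 0.446, edgeR adjusted p = 0.0674) and -1.31 in KO (standard error 0.445, edgeR adjusted p = 0.547), and neither passed. When the adipocyte marker mean entered the fit it was -0.94 in WT and -0.11 in KO (edgeR adjusted p = 0.551 and 0.999). The marker mean itself differs between the diets, so diet and fat cannot be fully told apart here. Without BS_1445, the WT-SFD aorta with little fat, it was -2.52 (edgeR adjusted p = 0.000553), and without BS_1309 it was -1.63 (edgeR adjusted p = 0.341). Without the KO-SFD aorta BS_1319 or BS_1507 the WT difference passed too (edgeR adjusted p = 0.0248 and 0.0273).

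Slc2a5, the fructose carrier, was nearly absent where fat markers were low. It had 95, 61 and 0 counts in WT-SFD and 58, 17 and 0 in KO-SFD, in the order of mice given above, and 0 to 3 counts in each of the 8 HFD aortae. It passed the filter on low counts through the fat-rich SFD aortae. A diet test on a gene that entered in this way would be fixed by its entry, so its values are given without a test or a fold change.

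**Figure D5:**
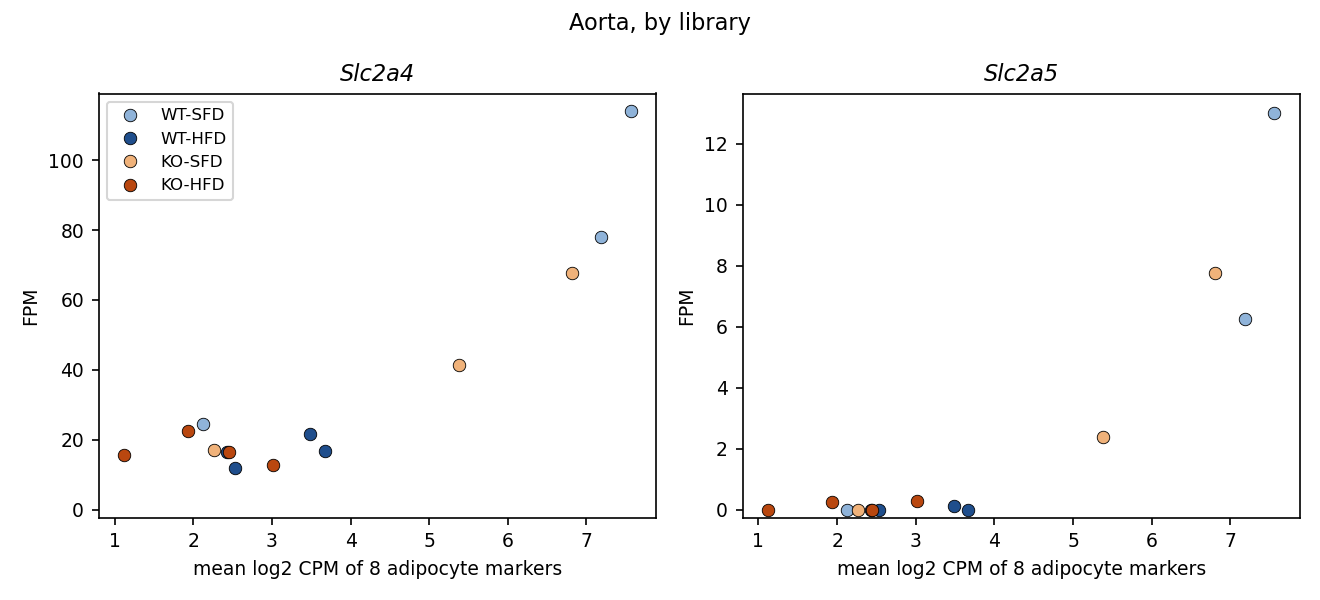
FPM of Slc2a4 (left) and Slc2a5 (right) in each aorta library against the mean log2 CPM of 8 adipocyte markers, coloured by group. The 4 SFD aortae with marker means of 5.38 to 7.56 hold 41.5 to 114 FPM of Slc2a4, and the other 10 hold 11.9 to 24.5 FPM.

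Slc2a1 lay wholly higher on HFD in WT aortae, as did 4.43% of all genes. The values were 18.0, 18.9 and 25.3 FPM on SFD and 25.9, 27.2, 30.7 and 26.5 FPM on HFD in WT, and 20.0, 24.5 and 22.5 on SFD against 22.1, 24.1, 33.5 and 28.5 on HFD in KO. The log2 fold change was 0.41 in WT (standard error 0.158, edgeR adjusted p = 0.188) and 0.28 in KO (standard error 0.157, edgeR adjusted p = 0.685). Without BS_1445 the WT value was 0.58 (edgeR adjusted p = 0.0306). It was 0.33 without BS_1309 and 0.35 without BS_1310 (edgeR adjusted p = 0.551 and 0.469). With the adipocyte marker mean in the fit, Slc2a1 differed by 0.29 in WT and 0.14 in KO (edgeR adjusted p = 0.692 and 0.999). Slc5a2 in the aorta had 2 to 9 counts in each SFD library, 7 to 46 in WT-HFD and 5 to 18 in KO-HFD. Only HFD aortae reached 10 counts and carried it past the filter, so its diet values too are given without a test.

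Of the 2 members with a diet test in the aorta, Slc2a1 and Slc2a4, none was called by edgeR for HFD against SFD in WT or in KO, where 0.0% and 0.0% of all 14796 genes were called. At an unadjusted p under 0.05 both passed in WT and 1 (Slc2a4) in KO, as did 17% and 7.85% of all genes, and DESeq2 called 1 (Slc2a4) and 0. For KO against WT, 0 of the same 2 members were called on SFD and 0 on HFD, with 0 at an unadjusted p under 0.05 (6.54% and 5.35% of all genes) and 0 by DESeq2, while 0.0811% and 0.0811% of all genes were called. The lists of other carriers, partners and glucose phosphorylation, with 10, 10 and 6 genes tested in the aorta, had 0 calls in any of these comparisons by edgeR.

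The kidney and aorta labels share a mouse number in 3 animals. SMMHC1309 and BS_1309 (WT-SFD) had 33.1 FPM of Slc2a4 in the kidney and 114 in the aorta, SMMHC1319 and BS_1319 (KO-SFD) 48.6 and 67.8, and SMMHC1504 and BS_1504 (KO-HFD) 34.3 and 16.6. For Slc2a5 the same mice had 146, 227 and 126 FPM in the kidney and 13.0, 7.77 and 0 FPM in the aorta.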

How the data were processed

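Counts per gene, 1 column per mouse, were used as the authors deposited them, without normalisation. Reads had been trimmed with cutadapt, aligned to mm10 with TopHat and counted with featureCounts, per the labels. The strand setting and the handling of reads with several hits are not given in the sources used here. No gene on chromosomes 9, X, Y or MT had a count. Of the listed genes on other chromosomes, Cdh5 and Acta1 (chromosome 8) and Rsc1a1 (chromosome 4) also had no count in any library. The cause was not tested. R 4.3.3 with edgeR 4.0.16 was used: TMM factors, filterByExpr by group (15034 genes left in the kidney, 14796 in the aorta), and glmQLFit with glmQLFTest on all libraries of a tissue, with 1 coefficient per group and Benjamini-Hochberg adjustment. Calls were made at 0.05 after adjustment. The median total count was 19544128 in the kidney and 8998366 in the aorta, so genes with few counts have wide errors. FPKM used the exon lengths of GENCODE vM21. The fit was tested on simulated data, of which no result is given here. Samples were grouped by the labels, which give no numbering shared between the groups of a tissue.

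Members and lists were chosen with earlier results of these data known. Named were all members, called genes of the lists (up to 4 per list and direction), each main list's most abundant gene and the 5 genes most like Slc5a2. One gene that this rule names is not reported here. Alternatives were RLE factors, library totals, DESeq2 1.42.0, the legacy quasi-likelihood test, no filter, a fit of the compared groups alone, a threshold of 0.001, the adipocyte covariate (aorta), the longest transcript and leaving out each library.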

Additional observations from a re-analysis of the deposited data

Results flagged for a closer look

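In 40 groups of 4 kidneys or aortae, each for a member that passed the filter, 3 held a library far from the other 3, and chance flags about 1 in 20 groups. Slc2a4 in WT-HFD kidneys was 31.3 FPM in SMMHC1535 and 27.8 to 28.3 FPM in the others. Slc5a2 in KO-HFD aortae was 2.46 FPM in BS_1505 and 0.611 to 0.88 FPM in the others. Slc2a5 in WT-HFD aortae was 0.128 FPM in BS_1448, which is 1 count, and 0 in the others.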

How the results depend on the processing

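No paired analysis was possible because the labels give the groups compared, all within 1 tissue, no shared replicate numbers. The numbers of members called in the kidney for KO against WT and for the interaction, and in the aorta for KO against WT and for HFD in KO, were 0 under every alternative run. For the aorta this is read for Slc2a1 and Slc2a4 alone, since Slc5a2 and Slc2a5 passed the filter through libraries of 1 diet. For HFD in WT aortae, with 0 members called, DESeq2 called 1 (Slc2a4), and no low count filter and library totals without TMM called 2 each (Slc2a4 and Slc2a5). Leaving out 1 aorta gave 0 to 3 calls: 3 without BS_1445 and 2 without BS_1319 or BS_1507. Nothing is read from the calls of Slc2a5, which is 1 of those called in each of these except by DESeq2. The log2 fold change of Slc5a2 in the kidney stayed between 1.09 and 1.33 in WT and between 1.30 and 1.69 in KO when 1 kidney was left out. Among other carriers in KO kidneys, with 1 call, DESeq2 gave 2 and a threshold of 0.001 gave 0, and leaving out 1 kidney gave 0 to 2. In WT kidneys, with 0 calls, leaving out 1 kidney gave 0 to 1. For glucose phosphorylation in KO kidneys, with 1 call, DESeq2 and the fit of only the groups compared gave 2 each, a threshold of 0.001 gave 0, and leaving out 1 kidney gave 0 to 2. The cause of these shifts was not tested. Over all genes DESeq2 called 202 higher and 61 lower for HFD in WT kidneys, against 123 and 22 by edgeR, and 421 and 274 in KO kidneys, against 236 and 124. In WT aortae it called 95 and 571, library totals 7 and 305 and no filter 13 and 334, against 0 and 0. Leaving out BS_1445 gave 534 and 1373, BS_1319 61 and 569 and BS_1507 26 and 412. In KO aortae DESeq2 called 2 and 6, and leaving out BS_1507 gave 0 and 15, against 0 and 0. For KO against WT in the kidney DESeq2 called 16 and 10 on SFD, 0 and 1 on HFD and 6 and 9 over both, against 0 and 2, 0 and 0, and 0 and 2. By edgeR the kidney on SFD had 0 and 0 without SMMHC1303, SMMHC1318 or SMMHC1319, and 1 and 4 without SMMHC1641. In the aorta DESeq2 called 17 and 4 on SFD and 31 and 9 on HFD, against 10 and 2 on each. On SFD 27 and 34 were called without BS_1445, 3 and 2 without BS_1310 and 3 and 1 in the fit of only the groups compared, which called 21 and 6 on HFD. Without BS_1309 6 and 2 were called on SFD, and with library totals 16 and 2. On HFD 4 and 2 were called without BS_1442 or BS_1443, and 16 and 4 without BS_1445. The adipocyte mean in the fit gave 18 and 5 on SFD and 18 and 10 on HFD. For HFD in kidneys the fit of only the groups compared called 109 and 10 in WT and 169 and 66 in KO. In KO, 156 and 50 were called without SMMHC1318, 164 and 54 without SMMHC1520 and 156 and 47 without SMMHC1558. Lower calls in KO were also 68 without SMMHC1504 and 74 without SMMHC1319. Lower calls in WT kidneys fell from 22 to 9 without SMMHC1535, 10 without SMMHC1695, 13 without SMMHC1613 and 14 without SMMHC1694. With library totals the median gene of the aorta lay at a log2 value of 0.268 for KO against WT on SFD, and at -0.0255 with TMM. The fit of only the compared groups gives no value for the average over diets or the interaction.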
